A study of Mus musculus with 40 samples.

Results

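Skeletal muscle genes were followed across RNA from mouse lung. They are 8 genes whose proteins build or fuel the fast-twitch sarcomere, namely Acta1, Actn3, Tnnc2, Tnnt3, Mylpf, Atp2a1, Ckm and Pgam2. All probe sets to which the array's annotation gives one of these symbols were taken, and each gene had exactly 1, so 8 probe sets of 22626 (8 of the 12393 genes tested) are described. The RNA came from lungs of the AJ strain, which the labels call hyperresponsive, or of the C3H strain, after aspiration of phosphate-buffered saline (PBS) alone or of PBS with an allergen, 6 h or 24 h earlier. Each of the 8 combinations had 5 one-colour arrays (Affymetrix), which makes 40. Strain was read from the titles, because all 40 descriptions name AJ although 20 titles carry C3H. The allergen is left unnamed, because titles write OVA and descriptions HDM. The labels give no sex or age and do not say that array numbers are separate mice, so the p-values below rest on the spread among arrays, and some of that may be technical.

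In a striated muscle fibre, myosin heads pull on actin filaments when calcium binds the troponin complex on the thin filament. Calcium is then pumped back into the sarcoplasmic reticulum, and creatine kinase and glycolysis restore the ATP that was spent. The lung holds airway and vascular smooth muscle, and in mice cardiac muscle along the pulmonary veins. The genes named here are expressed in body-wall, diaphragm and limb muscle and, in mice, in the oesophagus wall. Whether part of their signal comes from heart muscle was not tested. Levels are given as log2(intensity + 16), on which a value of 4 corresponds to an intensity of 0. In bulk RNA, fewer cells of a type and less RNA per cell cannot be told apart.

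Sequences just before the start sites are shown first. Any part of theirs in how the genes rose and fell together from array to array was not tested. RefSeq promoters on GRCm38.p6 were found for 6 of the 8 genes; Tnnt3 and Actn3 are named only. The 250 bases before the start site held CAGCTG, the form of the E box often bound by muscle helix-loop-helix factors, in 5 of the 6 genes, against 13.0% of all 32851 promoters. The general E box CANNTG, which includes CAGCTG, was present in 6 of 6 and in 66.2% of all promoters. Both strands were searched. A stretch of 60 bases around the first CAGCTG of each gene is printed 5′ to 3′ on the gene's strand, with those 6 bases in capitals. They lie at chr7:19410844-19410903 on the + strand (Ckm), chr7:126463096-126463155 on the - strand (Atp2a1), chr7:127211530-127211589 on the + strand (Mylpf), chr8:123894964-123895023 on the - strand (Acta1) and chr11:5803889-5803948 on the - strand (Pgam2).
Ckm: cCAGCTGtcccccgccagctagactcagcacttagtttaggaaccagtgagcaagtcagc
Atp2a1: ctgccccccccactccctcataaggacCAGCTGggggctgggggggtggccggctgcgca
Mylpf: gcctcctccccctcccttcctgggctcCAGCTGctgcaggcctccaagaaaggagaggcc
Acta1: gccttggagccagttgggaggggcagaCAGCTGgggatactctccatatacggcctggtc
Pgam2: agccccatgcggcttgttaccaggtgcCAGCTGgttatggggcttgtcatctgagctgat
The first base of the capitals lay 249 (Ckm), 55 (Atp2a1), 51 (Mylpf), 221 (Acta1) and 125 (Pgam2) bases before the start site. Acta1 also held a CArG box, ccaaatatgg, the serum response factor motif, starting 73 bases before the start site, which 1.47% of all promoters carry. Pgam2 held a MEF2 box, ctatttttaa, starting 80 bases before, found in 2.92% of promoters. These matches describe the letters in the window and are not shown to be bound sites.

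The signal of the skeletal muscle genes varied between arrays of the same group more than that of almost any other gene. Tnnc2, the calcium-binding troponin subunit of fast fibres, had a pooled SD between arrays of a group of 2.04 log2 units, the 4th highest of 12393 genes. The median gene had 0.24. Pgam2, the muscle phosphoglycerate mutase of glycolysis, had the lowest spread of the 8 genes at 0.79, still the 63rd highest. All 8 lay within the 123 genes that make up the top 1% by spread. This is a description, since the 8 genes were chosen with earlier results of these data known. Their spread ran in order from Tnnc2 through Acta1 (skeletal alpha-actin, 1.68), Mylpf (the fast myosin regulatory light chain, 1.36), Tnnt3 (the tropomyosin-binding troponin subunit, 1.17), Actn3 (the fast-fibre Z-disc crosslinker, 1.11), Ckm (muscle creatine kinase, 0.997) and Atp2a1 (the fast calcium pump, 0.88) to Pgam2. Of each gene's total variance over the 40 arrays, between 56.7% (Pgam2) and 70.5% (Tnnc2) lay within groups. The median over the 8 genes was 67.3% and over all genes 64.7%, so the 8 genes stood near the other genes in how their variance divided.

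**Figure D1:**
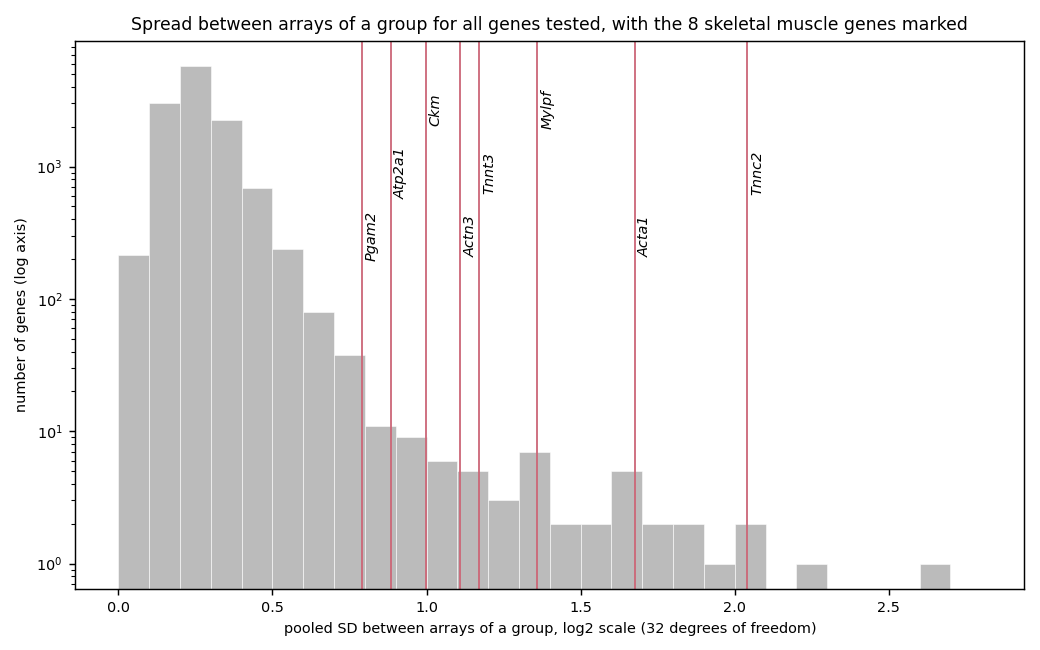
Number of genes (log axis) by pooled SD between arrays of a group, in log2 units, for the 12393 genes tested; red lines mark the 8 skeletal muscle genes. Tnnc2 stands at 2.04 and Pgam2 at 0.79, against 0.24 for the median gene.

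Some arrays stood apart from the rest. Sorted over the 40 arrays, Tnnc2 left a gap of 2.59 log2 units, and the next widest gap was 0.77. Below it lay 7 arrays at 4.18 to 4.40 (intensity 2.16 to 5.11), and above it 33 arrays at 6.99 to 11.08. The low arrays were AJ PBS 6 h replicates 1 and 2, C3H PBS 6 h replicates 2 and 4, AJ allergen 6 h replicate 3, AJ allergen 24 h replicate 5 and C3H allergen 24 h replicate 4. AJ PBS 24 h, C3H PBS 24 h and C3H allergen 6 h had none. These arrays were told apart by the level itself, so they form no group of the study and enter no test as one.

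In the AJ lungs Tnnc2 stood at 4.40, 4.23, 8.74, 6.99 and 10.15 in PBS 6 h, at 7.33, 7.30, 4.20, 9.44 and 9.86 in allergen 6 h, at 10.83, 10.60, 9.73, 9.29 and 11.08 in PBS 24 h and at 10.41, 8.97, 8.10, 8.53 and 4.32 in allergen 24 h. In the C3H lungs it stood at 9.40, 4.18, 9.35, 4.30 and 9.31 in PBS 6 h, at 9.09, 8.85, 10.29, 10.002 and 9.98 in allergen 6 h, at 9.88, 10.21, 9.36, 8.99 and 9.83 in PBS 24 h and at 10.28, 9.45, 10.74, 4.40 and 10.67 in allergen 24 h. The same group held arrays with almost no Tnnc2 signal and arrays with strong signal in 5 of the 8 groups.

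The 7 low arrays were picked by Tnnc2, so its own split is given by construction. Each of them was also below each of the 33 others for Acta1 (5.95 to 6.72 against 7.43 to 11.64). The same held for Tnnt3 (5.42 to 5.53 against 6.38 to 9.60). It held by narrower margins for Mylpf (4.29 to 5.65 against 5.87 to 9.24) and Actn3 (4.38 to 4.49 against 4.54 to 8.13). For Actn3 the highest low array and the lowest other array were at intensities 6.48 and 7.20, with no clear gap. Its next levels were 4.62 (C3H PBS 6 h replicate 5) and 4.64 (AJ allergen 6 h replicate 2). Atp2a1 was 6.58 to 7.48 in the low arrays, with 2 of the others below the highest of them. Ckm was 7.14 to 8.95, with 4 of the others below the highest, and 6 of the 7 low arrays stood above the lowest of the others (7.51). Pgam2 overlapped most: it spanned 4.49 to 7.14 in the low arrays and 4.69 to 7.65 in the others, 27 of which were below the highest low array. In C3H PBS 6 h replicate 2, for example, Pgam2 was 7.14 while Tnnc2 was 4.18.

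Mylpf, Tnnt3 and Ckm filled in the same picture. Mylpf was 4.81, 4.83, 7.36, 5.87 and 8.91 in AJ PBS 6 h and 8.90, 8.86, 8.13, 7.73 and 9.24 in AJ PBS 24 h, the groups with its lowest and highest means. Tnnt3 was 5.42, 5.42, 7.20, 6.41 and 9.13 in the first and 9.41, 9.55, 8.12, 7.97 and 9.60 in the second. Ckm was 8.18, 7.84, 8.77, 8.60 and 10.88 in the first and 11.09, 10.84, 10.82, 9.78 and 11.08 in the second. In each of the 3 genes, replicate 5 of AJ PBS 6 h stood as high as the AJ PBS 24 h arrays. In C3H allergen 24 h the 3 genes were at 4.99, 5.53 and 7.14 on replicate 4, and the other 4 arrays were at 8.14 to 9.15, 7.96 to 8.70 and 10.06 to 10.53.

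By group mean, AJ PBS 24 h came highest for all 8 genes and AJ PBS 6 h lowest for 7, with AJ allergen 24 h lowest for Pgam2. The means of AJ PBS 24 h ran from 7.14 ± 0.37 (SD, n = 5) for Pgam2 to 11.19 ± 0.44 for Acta1, and those of AJ PBS 6 h from 5.29 ± 1.44 for Actn3 to 8.85 ± 1.19 for Ckm.

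The SD within a group is larger by construction where a group holds low arrays, since these were picked by the Tnnc2 level, and it is given as a description. Over the 8 genes its median was 0.48 in C3H PBS 24 h, 0.58 in AJ PBS 24 h and 0.58 in C3H allergen 6 h, the groups without a low array. It was 1.11 in AJ allergen 24 h, 1.36 in C3H allergen 24 h, 1.42 in C3H PBS 6 h, 1.43 in AJ allergen 6 h and 1.49 in AJ PBS 6 h. Acta1 shows the range: its SD was 0.17 around a mean of 10.92 in C3H allergen 6 h and 2.49 around 9.06 in C3H PBS 6 h (n = 5 each).

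**Figure D2:**
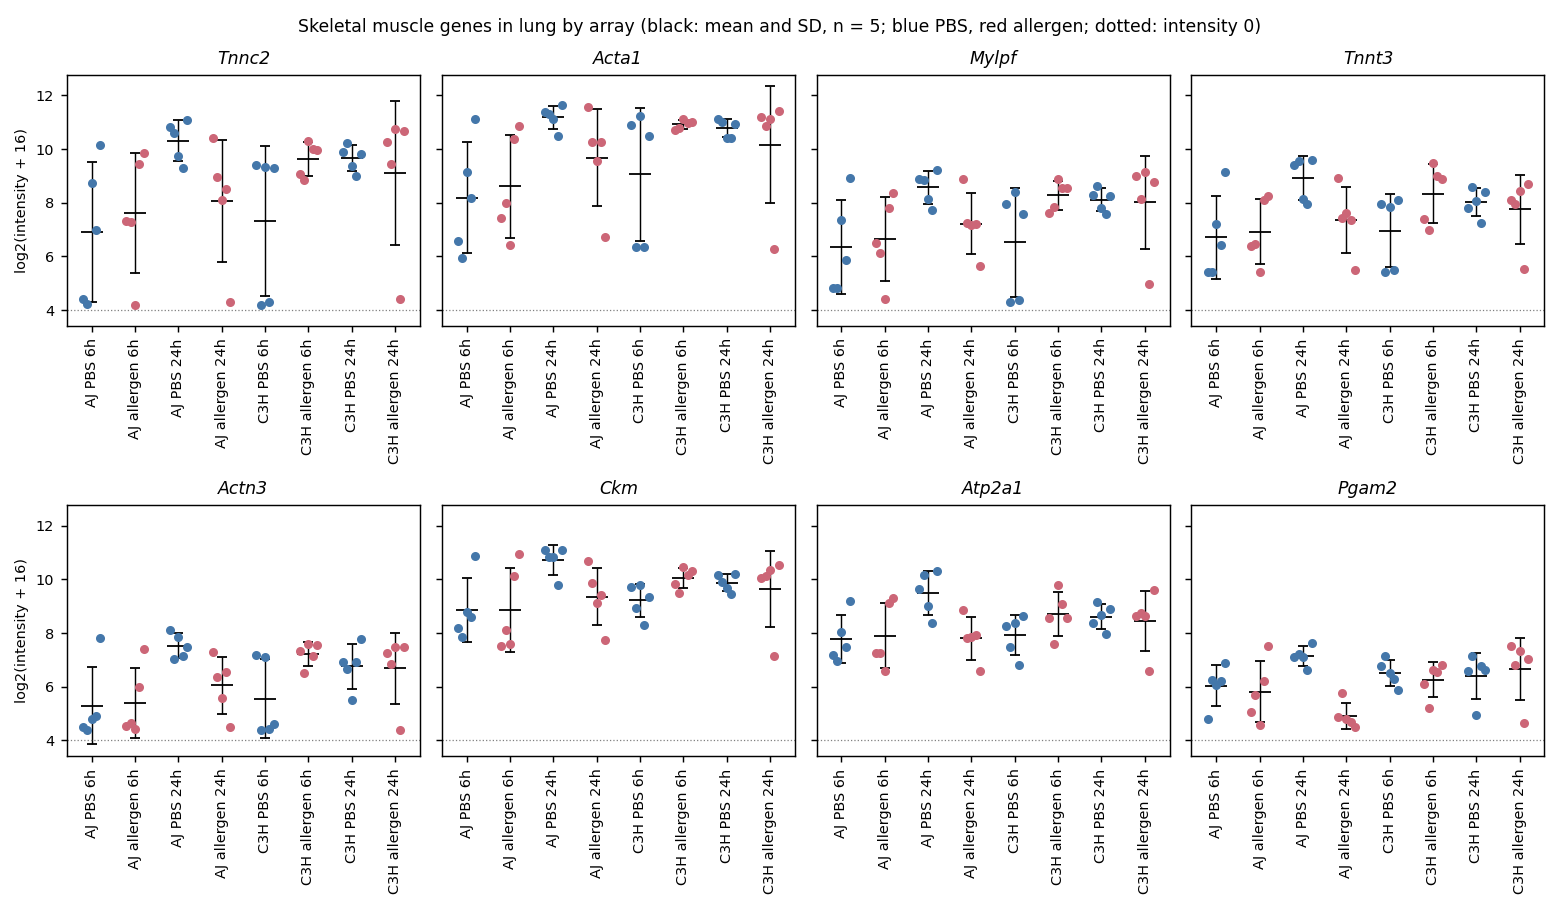
Level of each skeletal muscle gene, as log2(intensity + 16), on the 5 arrays of each group (blue PBS, red allergen), with the group mean and SD in black. Tnnc2 falls to between 4.18 and 4.40 on 7 arrays of 5 groups, and Pgam2 is 4.49 to 5.75 on the 5 arrays of AJ allergen 24 h.

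The genes also moved together among the arrays above the Tnnc2 gap. Because the arrays fell into separate clusters, correlations of deviations from the group mean were taken within the 33 arrays above the gap. All 28 pairs correlated there, with Pearson r from 0.52 (Actn3 and Atp2a1) to 0.96 (Tnnc2 and Mylpf) and Spearman rho from 0.44 to 0.96. Each of the 28 passed a permutation test (100000 resamples, two-sided) with Benjamini-Hochberg adjusted p of 0.00212 or lower for r and 0.0115 or lower for rho. Without the 2 arrays farthest from the median of the first gene, r still ran from 0.41 to 0.95. The permutation shuffled deviations over arrays regardless of group and did not count the group means removed, so its p may be too small. Counts of pairs that passed near the threshold are uncertain for that reason. The genes, the array clusters and the tissue lists used below were chosen with earlier results of these data known. The arrays were also cut at a level of Tnnc2, which is itself in some of the pairs. The permutation p-values here and below are therefore given as a description, and do not test independently whether the genes move together.

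Tnnc2 and Tnnt3, both of the troponin complex, had r = 0.91, and Acta1 and Ckm had 0.96. Actn3 was at 0.52 to 0.80 with the other genes and Pgam2 at 0.52 to 0.69. Within the 16 AJ arrays above the gap the 28 pairs had r of 0.60 to 0.98 and all passed by permutation. Within the 17 C3H arrays r ran from 0.14 to 0.89 and 20 passed; within the 15 arrays of 6 h, 0.67 to 0.97 and 28; within the 18 of 24 h, 0.17 to 0.96 and 18. On the 7 low arrays Tnnc2 and Actn3 lay below the pseudocount of 16, while Ckm was at intensity 125 to 478 and Atp2a1 at 80.0 to 163. Within these 7 arrays r of the levels ran from -0.60 to 0.86, and none of the 28 passed the permutation test (lowest adjusted p = 0.331).

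Of the 15 genes outside the 8 whose deviations tracked their mean deviation most closely, 8 were on the fast-fibre list and 4 on the list shared by skeletal and heart muscle, and Myhas, Tpm1 and Lce1a2 were on none. Over the 40 arrays the first were Tnni2 (r = 0.97), the inhibitory subunit of fast troponin, Myl1 (0.97), a fast myosin light chain, Myh1 (0.96), a fast myosin heavy chain, Myot (0.94), a Z-disc protein, and Mb (0.93), the oxygen store myoglobin. Next came Ryr1 (0.89), the calcium release channel, Apobec2 (0.89), Myhas (0.88), Pygm (0.87), muscle glycogen phosphorylase, and Eno3 (0.87), muscle enolase. They were followed by Tpm1 (0.86), Myoz1 (0.86), the giant spring protein Ttn (0.85), Smpx (0.84) and Lce1a2 (0.84), which encodes a late cornified envelope protein of squamous epithelium. Over the 33 arrays above the gap these 15 genes had r of 0.73 (Myhas) to 0.93 (Tnni2). The 6 genes at the other end had r of -0.66 to -0.59 over the 40 arrays.

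Lists of tissue markers differed by this measure, and some changed place when the 7 low arrays were left out. The 17 measured fast-fibre genes had a median r with the mean deviation of the 8 genes of 0.84 over 40 arrays and 0.74 over the 33 above the gap. The 24 genes shared by skeletal and heart muscle had 0.62 and 0.59, the 10 genes of the oesophagus and other stratified epithelia 0.60 and 0.47, and the 9 slow-fibre genes 0.40 and 0.38. The 11 smooth muscle genes had 0.25 and 0.47, led by Lmod1 (0.66 over 33 arrays) and Actg2 (0.60), 2 genes named after their values were seen. The 13 adipose genes had 0.37 and 0.01. The 16 genes of heart muscle only had 0.14 and 0.16, the 11 alveolar and airway genes 0.06 and -0.07, the 4 blood genes -0.11 and -0.11, and all genes -0.04 and -0.05. The developmental muscle (10 genes), brown adipose (4), cartilage (11), thymus and thyroid (5) and peripheral nerve (4) lists had medians of -0.14 to 0.28 over 40 arrays and of -0.30 to 0.31 over 33. Genes of these lists share arrays and scaling, and the medians are given as a description.

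Krt4 and Krt13, keratins of stratified epithelium, varied most. Krt4, the keratin of the upper layers of oesophageal epithelium, had a pooled SD of 2.67, the highest of all genes tested. Krt13, its filament partner, had 2.28, and Ucp1, a brown adipose gene, came next at 2.07. Other keratins of the stratified epithelium list ran from 0.21 (Krt14) to 1.25 (Krt15). In the 7 arrays with Tnnc2 near the pseudocount, Krt4 was 4.49 to 5.34 and Krt13 5.11 to 5.96. Krt4 had a gap of its own, 3.46 log2 units wide, with 13 arrays below it. Those were the 7 low arrays and 6 more, in which Krt4 was 4.46 to 4.88 while Tnnc2 was 7.30 to 9.44 and Acta1 7.43 to 10.47. The 6 were AJ allergen 6 h replicates 1, 2 and 4, AJ PBS 6 h replicate 3, C3H PBS 6 h replicate 5 and C3H PBS 24 h replicate 3. So muscle signal was found on arrays with low Krt4, whereas no array had high Krt4 with Tnnc2 near the pseudocount.

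Of the 8 genes Actn3 had the highest r with each of the 3 brightest epithelial genes. It stood at 4.54 to 6.01 on those 6 arrays and at 4.92 to 8.13 on the 27 arrays above both gaps. Within the 27, Actn3 had r = 0.85 with Krt4, 0.87 with Krt13 and 0.86 with Lor, a cornified envelope protein (permutation test, adjusted p = 8.84e-05 each, over 336 pairs of a skeletal muscle gene and a list gene). Without the 2 arrays farthest from the median of Actn3 these were 0.79, 0.82 and 0.81. Tnnc2 had r = 0.74 with Krt4, 0.76 with Krt13 and 0.74 with Lor in the same 27 arrays. Pgam2 had the lowest r with Krt4, 0.41 (permutation adjusted p = 0.0869). Actn3 was also close to Myh8, the perinatal myosin heavy chain (r = 0.94 over 33 arrays, permutation adjusted p = 8.84e-05). The developmental muscle list that holds Myh8 was mixed, with a median r of 0.31 over these 33 arrays. In it Des had r of 0.46 to 0.78 with the 8 genes and all 8 pairs passed, whereas Myod1 had -0.23 to -0.01 and none passed. Whether r differed between the genes was not tested.

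**Figure D3:**
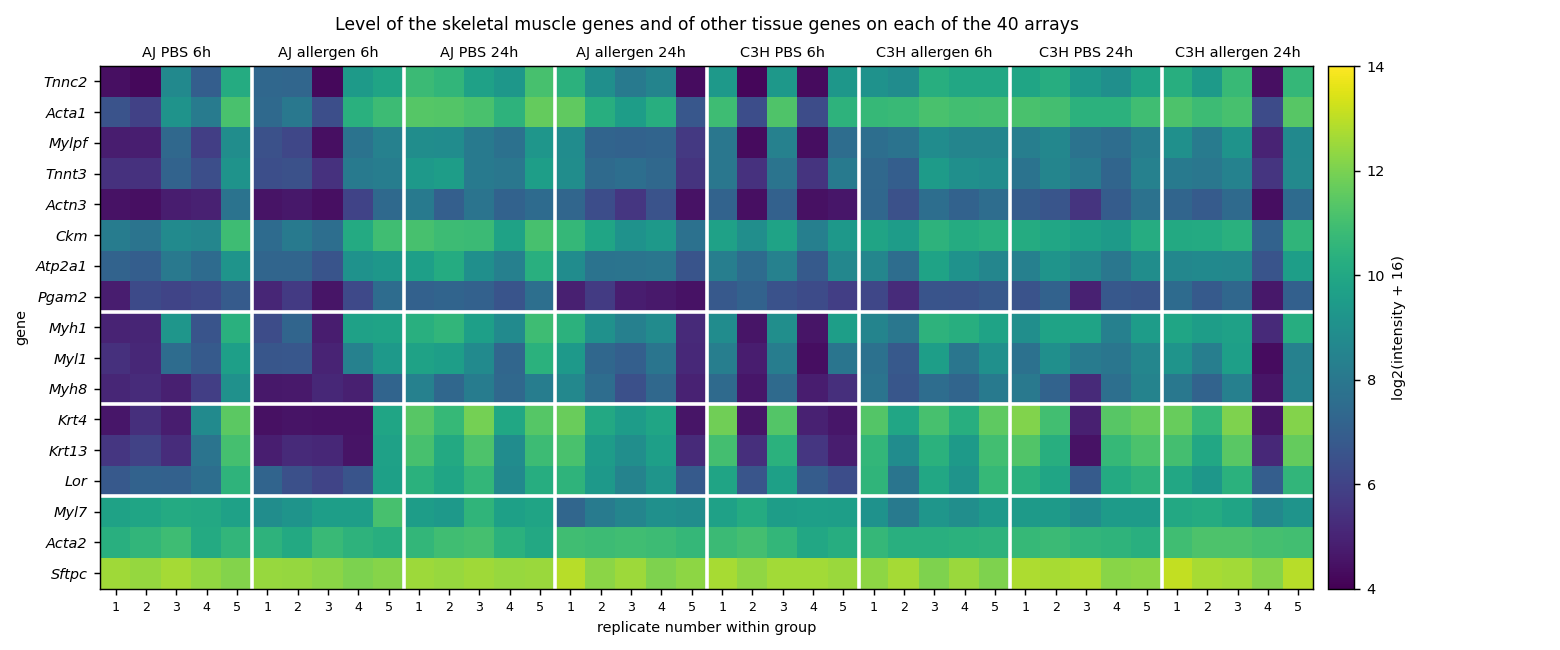
Level as log2(intensity + 16), from 4 (dark) to 14 (bright), of the 8 skeletal muscle genes, 3 other fibre myosins, 3 stratified epithelium genes and 3 genes of heart, smooth muscle and alveolus on each of the 40 arrays. The 7 arrays with Tnnc2 at 4.18 to 4.40 are dark for Krt4 as well. On 6 further arrays Krt4, Krt13 (4.51 to 5.27) and Myh8 (4.65 to 5.33) are dark while Tnnc2 is 7.30 to 9.44.

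The tissue of the labels was plain on every array. Sftpc, the surfactant protein of alveolar type II cells, was 12.20 to 12.60 on the 7 low arrays and 12.04 to 13.07 on the others. Myl7, the atrial myosin light chain, was 8.67 to 10.13 and 7.31 to 11.10, and the smooth muscle actin Acta2 was 9.98 to 11.05 and 10.04 to 11.22. The summed intensity of the 11 alveolar and airway genes was 34361 to 43476 on the low arrays and 31604 to 47240 on the others. That of the 10 stratified epithelium genes was 337 to 525 on the low arrays and 333 to 10758 on the others. Over the 33 arrays above the gap, Sftpc had r of -0.39 to -0.04 with the 8 genes, and none of the 8 pairs passed the permutation test (adjusted p of 0.0656 or higher). Smooth muscle genes differed among themselves: Acta2 had r of 0.01 to 0.14 and Mylk -0.29 to -0.08, with no pair passing, while Tagln, an actin-binding protein, had 0.25 to 0.58 and 4 pairs passed (permutation adjusted p = 0.00204 at the lowest, with Actn3). Heart genes differed as well. Actc1, cardiac alpha-actin, had r of 0.36 to 0.68 and 5 pairs passed (permutation adjusted p = 0.00028 at the lowest, with Pgam2), and Myl4 had 0.11 to 0.62 and 1 passed. Myl7 had r of 0.06 to 0.55, and of its 8 pairs only that with Pgam2 passed (r = 0.55, permutation adjusted p = 0.00416). For this pair r fell to 0.37 without the 2 arrays farthest from the median of Pgam2, and rho was 0.34 (adjusted p = 0.133). Mbp, a myelin protein, ran opposite to 5 of the 8 genes (r to -0.70, with Actn3). The peripheral nerve list that holds Mbp was mixed. In it Pmp22 had r of -0.50 to -0.20 and 2 pairs passed, and Sox10 had -0.08 to 0.17 and none passed. The part of these tissues in the differences below was not tested.

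**Figure D4:**
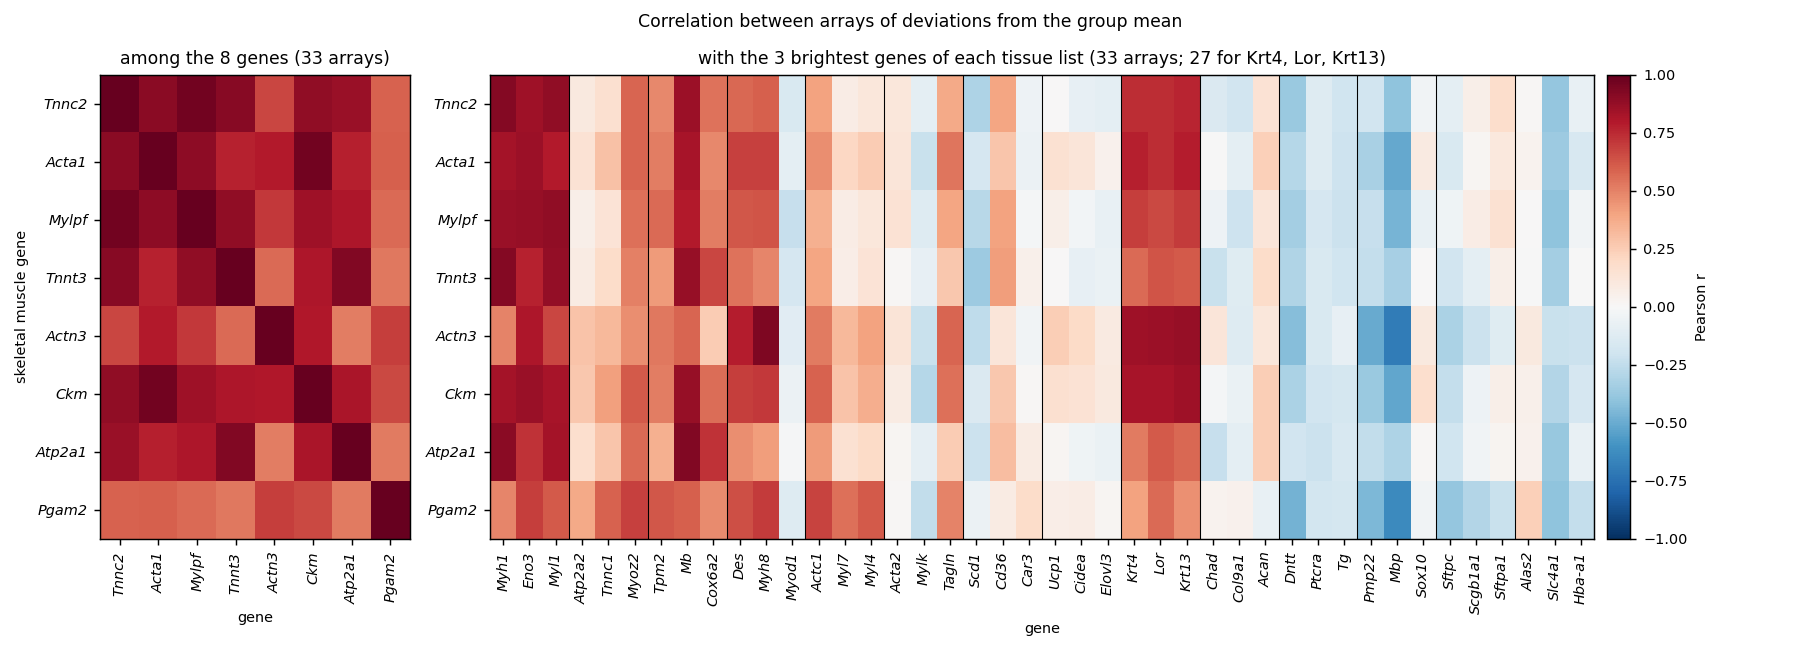
Pearson r between arrays of deviations from the group mean, on the left among the 8 skeletal muscle genes over 33 arrays and on the right with the 3 brightest genes of each of 14 tissue lists (black lines separate lists). The pairs on the left run from 0.52 to 0.96, and Actn3 reaches 0.87 with Krt13.

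Group differences were tested with limma across all 12393 genes, over 12 comparisons. The clearest lay in the AJ lungs 24 h after aspiration, where 2 of the 8 genes, Pgam2 and Atp2a1, were lower with the allergen than with PBS (7.84% of all genes were called in either direction). Pgam2 was 7.12, 7.22, 7.10, 6.61 and 7.65 with PBS and 4.89, 5.75, 4.80, 4.69 and 4.49 with the allergen. The groups did not overlap: every allergen array was under every PBS array. Of all genes, 8.67% did not overlap in this comparison, and of the 8 genes only Pgam2. The log2 fold change was -2.22 ± 0.47 (SE, n = 5 each; limma adjusted p = 0.00136). On the intensity scale Pgam2 was 81.9 to 184 with PBS and 6.54 to 37.8 with the allergen, so the allergen levels lie about the size of the pseudocount and the fold depends on it. It was -3.14 with a pseudocount of 1 and -1.26 with 64.

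Atp2a1 was 9.64, 10.17, 9.00, 8.36 and 10.31 with PBS and 8.85, 7.82, 7.87, 7.92 and 6.60 with the allergen. The groups overlapped by 1 allergen array, replicate 1. The difference was -1.68 ± 0.53 (limma adjusted p = 0.0396), and it did not pass in 10 of the 22 alternatives, among them the omission of any of AJ PBS 24 h replicates 1, 2 and 5 or of AJ allergen 24 h replicates 2, 3, 4 and 5. The PBS group of both differences, AJ PBS 24 h, is the one with the highest mean for all 8 genes.

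The other 6 genes also had lower means with the allergen, from -2.24 ± 1.21 for Tnnc2 to -1.34 ± 0.80 for Mylpf, and none passed (limma adjusted p 0.189 to 0.467). The median over the 8 genes was -1.54, and over all genes -0.004. Acta1, at -1.51 ± 0.99, was 11.37, 11.32, 11.13, 10.47 and 11.64 with PBS and 11.55, 10.28, 9.56, 10.27 and 6.72 with the allergen, 1 of them among the low arrays.

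Some genes of other muscle lists fell in the same comparison, in which 7.84% of all genes were called in either direction. Of the 24 genes shared by skeletal and heart muscle 10 fell, of the 9 slow-fibre genes 5, of the 17 fast-fibre genes 1 (Apobec2) and of the 16 heart-only genes 4; none of these rose. The count of the fast-fibre list is no larger than the share over all genes would give, and most genes of each list but the slow-fibre one did not pass. Cox6a2 and Cox8b, muscle subunits of cytochrome oxidase, fell by 1.19 and 1.89, Ldb3, a Z-disc protein, by 1.28 and Tcap, the titin cap, by 1.63 (limma adjusted p 0.00171 to 0.0109). Among slow-fibre genes Myh7, the slow and ventricular myosin, fell by 0.94 (limma adjusted p = 0.000125) and Tnnc1, slow troponin C, by 1.10 (0.0241). Of the heart-only genes Myl7 fell by 1.42 and Tnni3, cardiac troponin I, by 1.59 (limma adjusted p = 0.00229 and 0.00179).

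Some genes of non-muscle lists fell there too, while most genes of each list did not pass. Of the 13 adipose genes 5 fell, among them Scd1, a fatty acid desaturase, by 0.68 (limma adjusted p = 0.000984), and of the 10 stratified epithelium genes 2 (Krt15 and Sprr1a). Of the 11 alveolar and airway genes 3 fell, namely the water channel Aqp5 by 0.99, Scgb3a2 by 0.42 and the surfactant protein Sftpb by 0.47 (limma adjusted p 3.55e-05 to 0.0242), and of the 11 smooth muscle genes none. The summed intensity of the heart-only list was 3570 to 7862 with PBS and 1608 to 2903 with the allergen, that of the adipose list 11327 to 23631 and 5878 to 11128, and that of the stratified epithelium list 2500 to 9138 and 384 to 7943. None of these lists was at 0 in either group. With the mean of the stratified epithelium list as a covariate, which was chosen after seeing the data, Pgam2 was at -1.74 ± 0.36 (limma adjusted p = 0.00131) and Atp2a1 at -1.24 (0.106). The part of heart muscle and fat in the Pgam2 difference was not tested.

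In C3H lungs at 24 h none of the 8 genes passed (3.24% of all genes were called; the 8 had limma adjusted p of 0.798 or higher and unadjusted p of 0.537 or higher). Pgam2 was 6.57, 7.15, 4.93, 6.76 and 6.62 with PBS and 7.51, 6.81, 7.32, 4.64 and 7.05 with the allergen, a difference of 0.26 ± 0.47. Each group held 1 low value and otherwise stood at 6.57 to 7.51. The test of the strain difference itself gave Pgam2 a log2 value of 2.48 (C3H minus AJ), with a limma adjusted p of 0.0815, and none of the 8 genes passed (0.460% of all genes were called). Pgam2 passed in 2 of 32 alternatives, 1 of them without C3H allergen 24 h replicate 4, the low array, at 2.99 (limma adjusted p = 0.00914). That array was told apart by the level of Tnnc2 and was also low for Pgam2 (4.64). Its omission was thus chosen on these values, and the pass is given as a description.

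At 6 h none of the 8 genes passed the test of the allergen in either strain, against 19.0% of all genes called in AJ and 7.62% in C3H. In AJ the fold changes ran from -0.23 (Pgam2) to 0.73 (Tnnc2), with limma adjusted p of 0.776 or higher. In C3H 7 of the 8 were higher in the mean, with Tnnc2 at 2.33 ± 1.21 and Actn3 at 1.67 ± 0.66 (limma adjusted p = 0.282 and 0.127) and a median of 1.52. Actn3 passed in 1 of 22 alternatives, without the 2 arrays whose titles carry the letter b (limma adjusted p = 0.0426). The C3H PBS 6 h group had 2 low arrays and C3H allergen 6 h none. The test of the strain difference at 6 h called none of the 8 (2.15% of all genes). The change of the allergen effect from 6 h to 24 h called none in AJ (5.62%) or C3H (0.880%); Pgam2 in AJ was at -1.98 (limma adjusted p = 0.0724).

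Without the allergen, 2 of the 8 genes were higher in AJ lungs at 24 h than at 6 h (5.37% of all genes were called). Actn3 was 4.49, 4.40, 4.79, 4.92 and 7.83 at 6 h and 8.13, 7.03, 7.85, 7.16 and 7.48 at 24 h. The 6 h array at 7.83, replicate 5, stood within the 24 h range, and the other 4 were at 4.40 to 4.92. The difference was 2.24 ± 0.66 (limma adjusted p = 0.0367). Atp2a1 was 7.19, 6.97, 8.04, 7.49 and 9.19 at 6 h, with a difference of 1.72 ± 0.53 (limma adjusted p = 0.0464). The groups overlapped for all 8 genes, while 6.16% of all genes did not overlap.

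These calls depended on single arrays. All 8 genes had a higher mean at 24 h, by 1.10 (Pgam2) to 3.40 (Tnnc2), and the remaining 6 had limma adjusted p of 0.0519 to 0.165. Without AJ PBS 6 h replicate 5, 7 of the 8 genes passed, and without any 1 of AJ PBS 6 h replicates 1 to 4, or of AJ PBS 24 h replicates 1, 2, 3 and 5, none did. Without AJ PBS 24 h replicate 4, 4 passed. Of the 17 fast-fibre genes 5 were higher at 24 h, namely Apobec2, Cacna1s, Myoz1, Pygm and Ryr1, the last by 1.43 (limma adjusted p = 0.0176). The stratified epithelium list had 0 of 10 called and a summed intensity of 399 to 7616 at 6 h and 2500 to 9138 at 24 h. With its mean as a covariate none of the 8 muscle genes passed. In C3H PBS the same time difference called none (3.21% of all genes), with 7 of 8 genes higher in the mean and Tnnc2 at 2.35 ± 1.21. The comparison of C3H with AJ under PBS called none at 6 h (4.45%) or 24 h (1.93%). The comparisons above share PBS groups and are not independent.

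**Figure D5:**
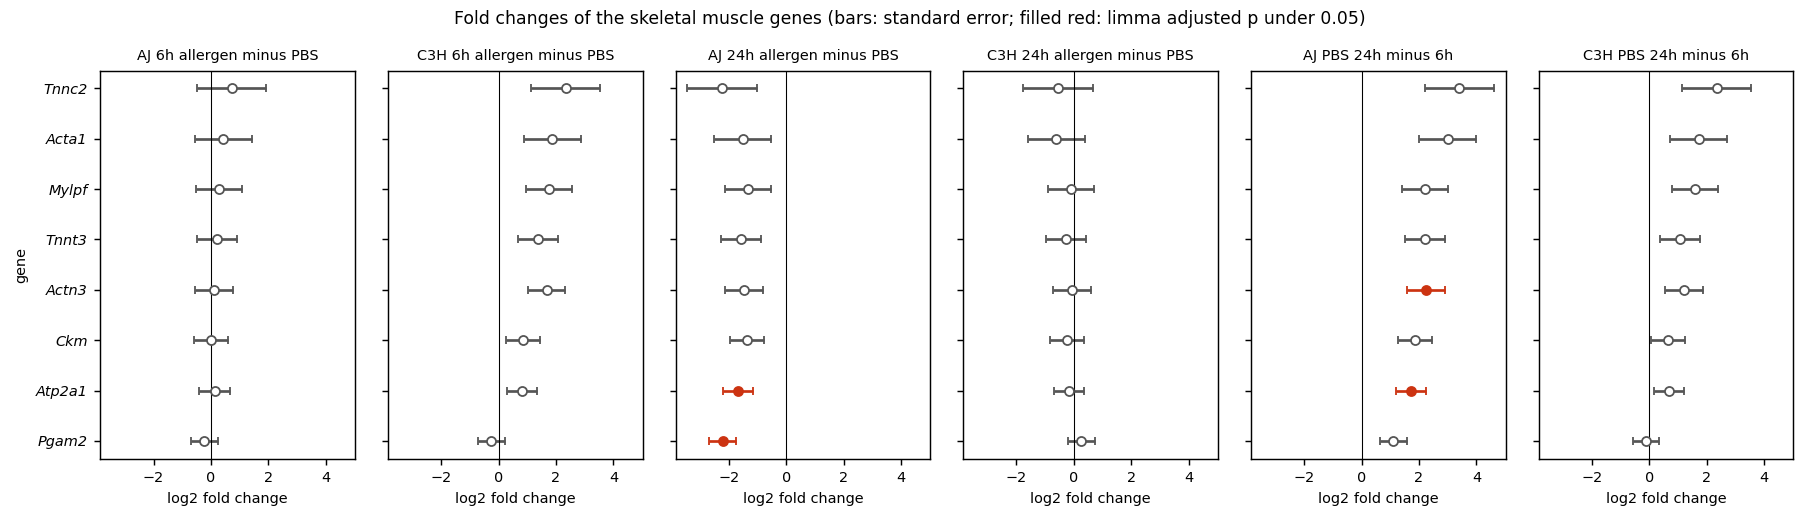
Log2 fold change with its standard error of the 8 skeletal muscle genes in the 4 allergen comparisons and the 2 comparisons of PBS at 24 h with 6 h; filled red points passed a limma adjusted p of 0.05. Pgam2 and Atp2a1 passed in AJ at 24 h (-2.22 and -1.68), and Actn3 and Atp2a1 in AJ PBS over time (2.24 and 1.72).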

How the data were processed

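Values are linear intensity readings, 1 for each probe set of an array, deposited by the authors; how they were scaled is not given in the sources used here. From the values, the arrays share a trimmed mean of about 150, while medians run from 63.7 to 81.3. Array number limits the precision. Controls (64 probe sets) were left out. A gene was its brightest probe set among those with 1 symbol. Levels were log2(intensity + 16); 13.6% of values lay below the pseudocount of 16. limma 3.58.1 fitted 8 group means (R 4.3.3), with Benjamini-Hochberg adjustment over 12393 genes and a threshold of 0.05; it was tested on simulated data. The correlations were planned over 40 arrays and are reported over 33, since arrays fell into clusters. Members, lists and array clusters were chosen with earlier results of these data known. Named outside the members are the 15 genes most like them and, per list, the 3 brightest or up to 4 called. Cacna1s, Lmod1, Actg2 and Krt14 were named after their values were seen.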

Additional observations from a re-analysis of the deposited data

Results flagged for a closer look

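Of 64 sets of 5 arrays (8 genes in 8 groups), 10 held a lowest or highest array far from the rest by Dixon's criterion; chance gives about 1 in 20 sets. C3H allergen 24 h replicate 4 was lowest, far below the other 4 arrays, for 7 genes: Acta1 (6.28), Actn3 (4.38), Tnnc2 (4.40), Tnnt3 (5.53), Mylpf (4.99), Ckm (7.14) and Pgam2 (4.64). These 7 values come from 1 array and are not independent. Without it, the C3H allergen difference at 24 h turned from -0.62 to 0.35 for Acta1 and from -0.55 to 0.63 for Tnnc2, neither of which passed in limma. AJ PBS 6 h replicate 5 was highest for Actn3 at 7.83, with the next array at 4.92. AJ PBS 24 h replicate 4 was lowest for Ckm at 9.78, with the next at 10.82. C3H PBS 24 h replicate 3 was lowest for Pgam2 at 4.93, with the next at 6.57, and its Krt4 was 4.88.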

How the results depend on the processing

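Pgam2 in AJ at 24 h passed in all 22 alternatives (adjusted p 0.000103 to 0.00606, log2 fold change -3.14 to -1.26). The 2 genes called there became 1 with a pseudocount of 1, with trend and robust variances and with the epithelial covariate, and 1 to 2 on leaving out single arrays. In AJ PBS over time the 2 calls became 4 with quantile normalization, 1 with median centring, 0 with a pseudocount of 1, 5 without the lowest 25% of genes, 6 with array weights, 1 with trend and robust variances, 1 with the groups compared alone, 0 with the covariate and 0 to 7 on leaving out single arrays. Counts of 0 became 1 in C3H at 6 h without the 2 arrays whose titles carry the letter b (Actn3, 2.06), in the 24 h strain difference with array weights and, on leaving out single arrays, 0 to 1, and in the AJ time difference of the allergen effect with array weights and with the covariate and, on leaving out single arrays, 0 to 1. The other 7 comparisons called none of the 8 in any alternative run. The median spread, 1.14, ran from 0.89 to 1.501. All 28 pairs correlated in every alternative run and on leaving out any single array. Above the gap, 20 of the 28 passed within the C3H arrays alone and 18 within the 24 h arrays alone. Uncalled fold changes turned sign in 96 of the alternative values; no called one did.

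Over all genes the count called went from 944 to as few as 370 in C3H at 6 h and from 402 to 161 or 714 in C3H at 24 h (188 to 620 on leaving out single arrays). It went from 267 to 112 or 478 for the strain difference at 6 h, and from 57 to 31 or 200 at 24 h (19 to 177). It went from 697 to 1118 for the AJ and from 109 to 32 (29 to 151) for the C3H time difference of the effect. For PBS it went from 552 to 176 (6 h) and from 239 to 483 (24 h) between strains. Over time it went from 666 to 281 or 1149 in AJ and from 398 to 191 or 843 in C3H. With the replicate number as a block, limma called 2 of the 8 genes in AJ at 24 h and 3 in AJ PBS over time. Same-numbered arrays correlated at -0.23 to 0.26 and showed no clear pairing, and the labels do not say what the numbers stand for. In AJ at 24 h the list counts ranged from 8 to 15 (shared muscle, main 10), 3 to 7 (slow fibre, 5), 0 to 5 (fast fibre, 1), 2 to 6 (heart only, 4), 3 to 7 (adipose, 5), 2 to 5 (alveolar and airway, 3) and 0 to 3 (stratified epithelium, 2), leaving out single arrays included. Fast-fibre calls in AJ PBS over time ranged from 0 to 9 (main 5).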
